A study of Mus musculus with 8 samples.

Results

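The genes described are 7 of the 37310 annotated mouse genes: the colony stimulating factors Csf1 (M-CSF), Csf2 (GM-CSF) and Csf3 (G-CSF), the cytokines Il3 and Il6, and the receptor genes Csf1r and Csf2rb. They were taken by symbol, and no measured value entered the choice rule, although earlier results of these data were known when they were chosen. For each gene, every NFATc2 summit within 100 kb of an annotated transcription start site (TSS) was collected, together with every H3K4me3 peak that overlapped the gene or lay within 1 kb of a TSS. Il3 and Csf2, which are neighbours, are described together as 1 locus, and counts are given over the 7 genes and, where they share a summit, over the 6 loci.

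The study mapped binding of the transcription factor NFATc2 and the histone mark H3K4me3 in D1 cells, a long-term splenic dendritic cell (DC) line from C57BL/6 mice. All D1 cultures received supernatant of NIH3T3 fibroblasts transfected to make GM-CSF, so the product of Csf2 was supplied from outside in every condition. For NFATc2, D1 cells stably expressing the factor with a V5 tag from a lentiviral vector, sorted for low expression of a linked GFP, received curdlan at 10 μg/ml for 30 min, curdlan being a β-glucan ligand of the receptor dectin-1. For H3K4me3, D1 cells were non-treated (NT), stimulated with 10 μg/ml curdlan for 2 h, or stimulated in the same way in the presence of FK506, a calcineurin inhibitor that blocks NFAT activation. The dose of FK506 for these libraries is not given in the sources used here. With a single ChIP library and a single input library for each of the 4 conditions, replicate spread is unknown and no p-value was computed between conditions. An NFATc2 library of unstimulated cells was not analysed here, so a summit marks binding after curdlan and not a change.

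NFAT proteins stay in the cytoplasm until calcium and calcineurin signalling dephosphorylates them, and in the nucleus they often bind GGAAA-containing sites beside AP-1. GM-CSF, IL-3 and IL-6 are inducible cytokines, and the CSF2-IL3 region is a classical NFAT and AP-1 target in T cells. M-CSF acts through the receptor tyrosine kinase encoded by Csf1r, whereas GM-CSF and IL-3 signal through the common β subunit encoded by Csf2rb. H3K4me3 marks the starts of genes that are active or poised for transcription.

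The ChIP libraries held 14377535 tags for NFATc2 and between 16662316 and 21289349 tags for H3K4me3, against inputs of 9309800 to 12085435 tags. Below, tags divided by the ChIP total of their library and multiplied by 1000000 are called scaled tags. Of 10 dendritic cell markers, 9 carried an H3K4me3 peak at a TSS in each list, among them Itgax, Zbtb46 and Irf8, and Flt3 carried none in any list. None of the 3 fibroblast markers and none of the 3 B cell markers carried one. Of 4 T cell markers, 1 did in every list (Lck, 19.7 to 23.2 scaled tags). Of the 2 macrophage markers, 2 did in NT and in curdlan and 1 in curdlan with FK506. Emr1 held 115, 70.3 and 63.8 scaled tags in that order, beside 29.9, 46.6 and 48.1 at Irf8 and 153, 177 and 190 at Itgax. Mertk held 14.9 and 18.6 in NT and curdlan. These markers therefore do not separate dendritic cells from macrophages.

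Within 100 kb of the 7 genes there were 15 distinct NFATc2 summits of the 9438 in the genome. The 2 summits on either side of the Csf2-Il3 pair fell within 100 kb of both genes, which gave 17 pairs of a gene and a summit. Of the 7 genes, 6 had a summit in this window, beside 55.3% of all protein-coding genes, and of the 6 loci 5 had one. Of the 15 summits, 11 were intergenic, 3 lay in introns and 1 in an exon, and none lay within 1 kb of a TSS of these genes, where 5.29% of protein-coding genes had a summit. Within 30 kb, Csf1, Csf2, Il3 and Csf1r had one, 4 of 7, beside 30.2% of protein-coding genes, and within 50 kb they were still these 4, beside 39.9%. Csf2 and Il3 shared the summit that counted within 30 kb, so over loci this was 3 of 6. The peaks held 37 to 158 tags, with a median of 58, beside a median of 63 over all NFATc2 peaks. Their fold enrichment over input ranged from 7.23 to 24.3 with a median of 14.0, beside 13.4 over all peaks.

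The sequences below are 201 bases centred on 5 of these summits, as the plus strand of mm9 reads. The first is the summit nearest to Csf1 and the only one of the 5 with GGAAAA, the 6-base form of the NFAT site searched for here, while the shorter GGAAA was not counted. The next is the single summit near Csf3, which holds the AP-1 consensus TGANTCA close to its centre. The third holds the same consensus and is the highest by tags in the Csf2 window. The last 2 are the summits shared by Csf2 and Il3, which hold neither. Capitals mark a GGAAAA or TGANTCA, on either strand.
Csf1 upstream, chr3:107586413-107586613: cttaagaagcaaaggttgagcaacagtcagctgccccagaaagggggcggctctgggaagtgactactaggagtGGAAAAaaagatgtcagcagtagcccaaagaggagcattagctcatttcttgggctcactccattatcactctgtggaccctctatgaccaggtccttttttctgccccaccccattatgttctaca
Csf3 downstream, chr11:98637186-98637386: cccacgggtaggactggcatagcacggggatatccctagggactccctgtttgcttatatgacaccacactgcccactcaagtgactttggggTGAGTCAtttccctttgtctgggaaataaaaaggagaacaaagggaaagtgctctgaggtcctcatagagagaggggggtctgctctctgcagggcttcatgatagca
Csf2 far downstream, chr11:53969410-53969610: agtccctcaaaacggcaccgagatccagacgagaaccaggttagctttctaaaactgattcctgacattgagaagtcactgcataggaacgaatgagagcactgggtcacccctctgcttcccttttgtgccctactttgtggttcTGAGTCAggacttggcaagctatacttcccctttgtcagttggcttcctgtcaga
Csf2 downstream, shared with Il3, chr11:54032797-54032997: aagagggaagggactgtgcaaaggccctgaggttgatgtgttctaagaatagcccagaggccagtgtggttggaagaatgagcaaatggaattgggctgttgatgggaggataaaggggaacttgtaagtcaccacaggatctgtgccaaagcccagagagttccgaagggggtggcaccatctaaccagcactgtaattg
Il3 upstream, shared with Csf2, chr11:54086717-54086917: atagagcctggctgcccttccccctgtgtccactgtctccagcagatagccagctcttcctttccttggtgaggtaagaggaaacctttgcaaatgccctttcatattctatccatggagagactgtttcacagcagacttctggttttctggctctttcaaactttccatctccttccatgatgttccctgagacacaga

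Csf1 (chr3:107543966-107563387, minus strand, 6 annotated TSSs) had the most summits, 6, and 3.86% of protein-coding genes had as many or more. Of these, 4 lay upstream and 2 downstream. The nearest was 23126 bp upstream, with 45 tags (95% Poisson interval 32.8 to 60.2), an enrichment over input of 12.4 and a p-value of 1.6e-09. No other protein-coding TSS lay between it and Csf1, and the GGAAAA printed above was 23 bp from the summit. The other upstream summits were 58820, 89420 and 92453 bp away, with 56, 37 and 60 tags, and Eps8l3 was the nearest protein-coding gene to all of them. Downstream, distances were taken from the last Csf1 TSS. A summit with 58 tags lay 44507 bp from it, between Csf1 and Ahcyl1, and one with 52 tags lay 61989 bp from it in intron 1 of Ahcyl1. Csf1 was thus the nearest protein-coding gene of 1 of its 6 summits. The 58820 bp summit held TGANTCA and the 89420 bp summit held GGAAAA.

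At the Csf2-Il3 locus (Csf2, chr11:54060773-54063169, and Il3, chr11:54078805-54080779, both on the minus strand with 1 TSS, 17.6 kb apart), 3 summits were within 100 kb of Csf2 and 2 of these within 100 kb of Il3. The summit 6038 bp upstream of Il3 had 40 tags (95% Poisson interval 28.6 to 54.5), an enrichment over input of 14.8 and a p-value of 8.9e-09. Il3 lies between it and Csf2. On the other side, the summit 30272 bp downstream of Csf2 had 53 tags (39.7 to 69.3), a p-value of 2.0e-15 and the highest fold enrichment of the 15, 24.3, at percentile 88.2 of all NFATc2 peaks. Its nearest protein-coding TSS was that of Csf2. The third summit, 93659 bp downstream of Csf2, had 81 tags and was nearest to P4ha2, a collagen-modifying enzyme gene. No summit lay between the 2 cytokine genes.

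Csf3 (chr11:98562577-98564943, plus strand, 1 TSS) had 1 summit, 74709 bp downstream, with 60 tags (45.8 to 77.2), an enrichment over input of 9.06 and a p-value of 7.6e-10. The TSSs of Med24, Thra and Nr1d1 lay between it and Csf3, and the summit was 639 bp from the start of Nr1d1, which encodes a circadian repressor. The TGANTCA printed above was 4 bp from the summit. Il6 (chr5:30339701-30346508, plus strand, 1 TSS) had no summit within 100 kb. The nearest was 202353 bp downstream, with 48 tags and a p-value of 1.2e-12, and 70.6% of protein-coding genes had one within 200 kb.

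Csf1r (chr18:61265226-61291803, plus strand, 4 TSSs) had 4 summits, all within 30 kb, and 12.0% of protein-coding genes had at least 4 in the 100 kb window. Csf1r was the nearest protein-coding gene of all 4. The summits upstream were 18157 bp away with 40 tags and a fold enrichment of 21.1, and 3890 bp away with 59 tags and a fold enrichment of 7.23. The summit 2518 bp downstream of the last TSS lay in intron 2 of the longest transcript, and the Csf1r intron in this region is known for an enhancer used in myeloid cells. It had 144 tags (121 to 170), at percentile 86.2 of all NFATc2 peaks, a p-value of 3.0e-17, the lowest of the 15, and a fold enrichment of only 7.34, at percentile 5.18. The last summit, 14782 bp downstream, had 76 tags and fell in the last exon of 1 transcript and in introns of the other 3.

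Csf2rb (chr15:78156420-78184277, plus strand, 2 TSSs) had 1 summit, 67603 bp upstream, in an intron of Ncf4, a subunit gene of the phagocyte NADPH oxidase. It had the most tags of the 15, 158 (134 to 185), and the weakest p-value, 3.7e-06, with an FDR of 2.46%. An internal annotated start of Ncf4, 2491 bp from the summit, and the start of Csf2rb2, the paralogue that encodes the IL-3-specific β subunit, lay between the summit and Csf2rb. Among the 7 genes, then, Csf1r alone had summits inside the gene, whereas those of the other receptor, Csf2rb, and of the ligands were outside the genes.

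**Figure D1:**
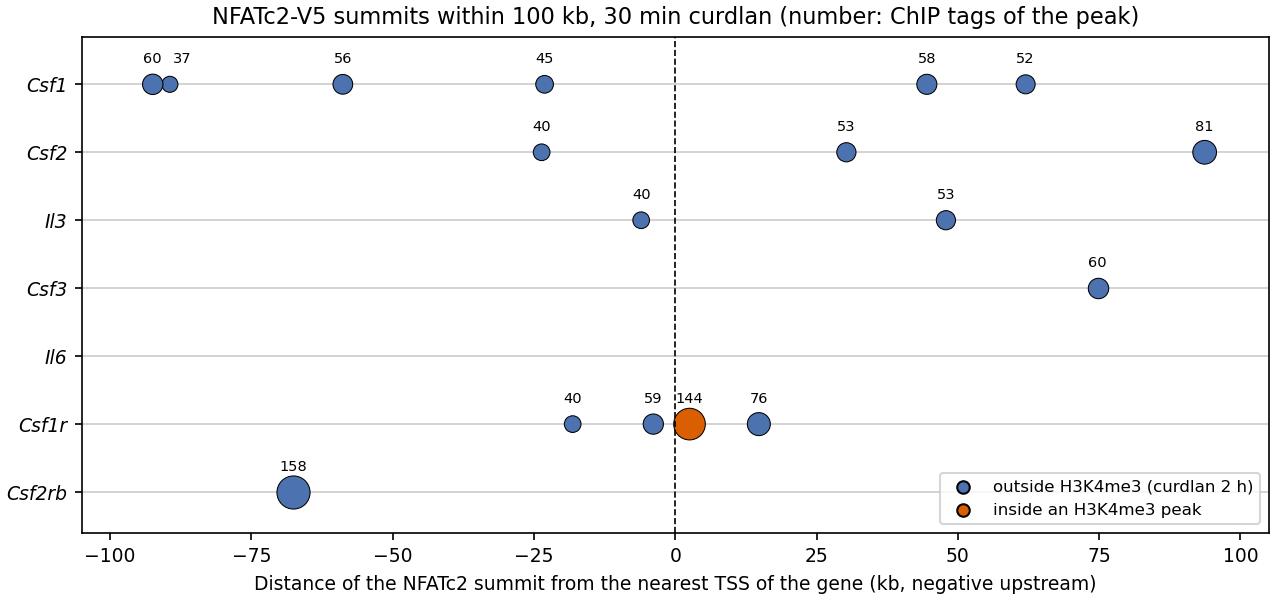
Distance in kb of each NFATc2 summit from the nearest TSS of its gene (x axis, negative upstream) for the 7 genes (y axis), from 1 library. Point area and the printed number give the ChIP tags of the peak, and colour marks whether the summit fell inside an H3K4me3 peak after 2 h of curdlan. The row of Il6 is empty, and the only summit inside an H3K4me3 peak is the one with 144 tags in Csf1r.

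Just inside the 100 kb limit lay the summit 93659 bp from Csf2, with 81 tags, and the one 92453 bp from Csf1, with 60 tags. Just outside it, a summit with 42 tags was 103226 bp from the nearest TSS of Csf1 and another with 42 tags was 103468 bp from that of Csf2. For Csf3, Csf2rb and Csf1r the next summits were 108, 122 and 139 kb away, with 48, 108 and 82 tags.

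GGAAAA was found within 100 bp of 4 of the 15 summits (26.7%), beside 45.6% of all NFATc2 summits with windows of the same length. TGANTCA was found at 4 of the 15 (26.7%), beside 21.8% of all. The search covered both strands, TGANTCA reads the same on both, and the motifs share no overlap in these windows. The summits with GGAAAA were 2 of Csf1 and 2 of Csf1r, and the one 18157 bp upstream of Csf1r held 4 copies. The summits with TGANTCA were 1 each of Csf1, Csf2, Csf3 and Csf1r, and the one 14782 bp into Csf1r held both. Within 250 bp, 7 of 15 held GGAAAA, beside 61.7% of all, and 6 of 15 held TGANTCA, beside 30.9%. In the promoters, from 250 bp before to 50 bp after the first TSS, GGAAAA was found at Il6 and Csf3, 2 of 7, beside 23.6% of 22350 promoters. TGANTCA was found in the promoter of Csf1r alone, 1 of 7, beside 6.93%.

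H3K4me3 split the 7 genes into those with the mark in every condition and those without it in any. Csf1, Csf1r and Csf2rb each carried 1 peak over the TSS in all 3 lists, and Csf2, Il3, Csf3 and Il6 carried none in any list. This is 3 of 7 genes, beside 51.4% of protein-coding genes in NT, 51.1% in curdlan and 51% in curdlan with FK506. An absent peak means only that no region passed the caller's threshold, and the depth of an unmarked gene is not given in a peak list.

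The unmarked region around Csf2 and Il3 was long. It was free of H3K4me3 peaks over 348 kb in NT, 347 kb in curdlan and 347 kb in curdlan with FK506, from a peak nearest to P4ha2 to the peak of Fnip1, and it held 4 NFATc2 summits. The nearest peak to Csf2 was 158 kb away in every condition, and the nearest to Il3 was 170 kb away in NT and 169 to 170 kb away in the stimulated cells. The Fnip1 peak held 1546 tags in NT, 1907 after curdlan and 1650 when FK506 was added. Acsl6 and P4ha2, which lie in this span, carried no peak within 1 kb of a TSS.

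Csf3 lay closer to marked chromatin. Its neighbours Med24, 962 bp from the gene, and Psmd3, 5284 bp away, carried peaks with 389 to 423 and 654 to 783 tags, and the nearest peak was 16.7 to 16.9 kb from Csf3. Il6 was 51.4 to 51.6 kb from the nearest peak, which belonged to Tyms and held 946, 833 and 754 tags. For these 4 inducible cytokine genes, no H3K4me3 peak was called at 2 h of curdlan. A gain under the caller's threshold cannot be seen in peak lists.

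Csf1, the ligand gene with the mark, held 392 tags in NT, 1225 in curdlan and 671 in curdlan with FK506. As scaled tags these were 23.5 (95% Poisson interval 21.3 to 26.0), 57.5 (54.4 to 60.9) and 34.5 (31.9 to 37.2). Thus NT was lowest, curdlan highest and curdlan with FK506 between them, and the counting intervals did not overlap. The peaks differed in length, however. Per kb of peak, NT at 8.72 (7.87 to 9.62) and curdlan with FK506 at 9.66 (8.94 to 10.4) scaled tags overlapped. Intervals here cover counting error only.

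Fold enrichment over input in the authors' lists at Csf1 was 26.7, 87.6 and 30.3 in the same order. Folds between conditions were taken as log2 ratios from which the median of every gene with a TSS peak in both lists was subtracted, since that median was itself 0.73 for curdlan over NT, -0.27 for curdlan with FK506 over curdlan and 0.45 for curdlan with FK506 over NT. Scaled tags had medians of -0.12, -0.04 and -0.17, nearer to 0. A ratio was called where it passed 2-fold after centring.

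For curdlan over NT, the centred log2 ratio of Csf1 was 0.98 by fold enrichment, at percentile 95.7 of 12369 genes and just under the limit. By scaled tags it was 1.41, at percentile 99.4 and past the limit. The uncentred ratio of scaled tags was 2.45 (95% interval 2.18 to 2.75). None of the 3 marked genes was called by fold enrichment in this comparison, where 4.07% of all genes were called higher and 3.81% lower. By scaled tags 1 of the 3, Csf1, was called higher, beside 1.71% of all genes, and none was called lower, beside 0.21%.

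For curdlan with FK506 over curdlan, the centred log2 ratio of Csf1 was -1.26 by fold enrichment, at percentile 1.42, and it was called lower, beside 4.08% of all genes called lower and 3.44% called higher. It was -0.70 by scaled tags, at percentile 1.75, which did not pass the limit, and the uncentred tag ratio was 0.599 (0.544 to 0.659). The measures differed in sign for curdlan with FK506 over NT: -0.27 by fold enrichment, and 0.72 by scaled tags with a tag ratio of 1.47 (1.29 to 1.66). The 3 comparisons share libraries, so they are not independent of each other.

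**Figure D2:**
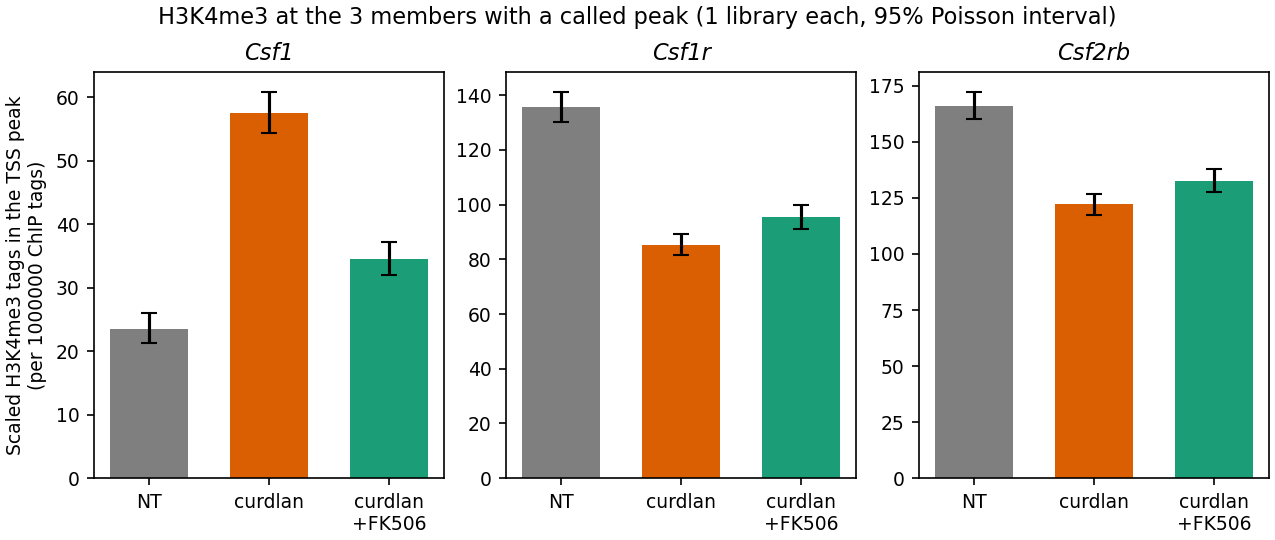
Scaled H3K4me3 tags in the TSS peak (y axis, from 0, a scale for each gene) in NT, curdlan and curdlan with FK506 for Csf1, Csf1r and Csf2rb. Bars are single libraries and error bars are 95% Poisson intervals. Csf1 goes from 23.5 to 57.5 and 34.5, while Csf1r and Csf2rb are highest in NT at 136 and 166.

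The peak at Csf1 also differed in extent. It was 2699 bp long in NT, 4805 bp in curdlan and 3568 bp in curdlan with FK506. From the first TSS it reached 648 bp upstream and 2050 bp downstream in NT, 1062 bp upstream and 3742 bp downstream in curdlan, and 668 bp upstream and 2899 bp downstream in curdlan with FK506. In the longest transcript set, intron 1 runs from 445 to 3729 bp, so the curdlan peak spanned the whole of intron 1, whereas the NT peak ended within it. The summit was 133 bp downstream of the TSS in NT, 1064 bp in curdlan and 674 bp in curdlan with FK506. The centred log2 ratio of length for curdlan over NT was 0.78, at percentile 96.8. A longer peak collects more tags: as scaled tags per kb of peak, Csf1 had 8.72, 12.0 and 9.66, and the centred log2 ratio for curdlan over NT was 0.64, at percentile 98.9.

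**Figure D3:**
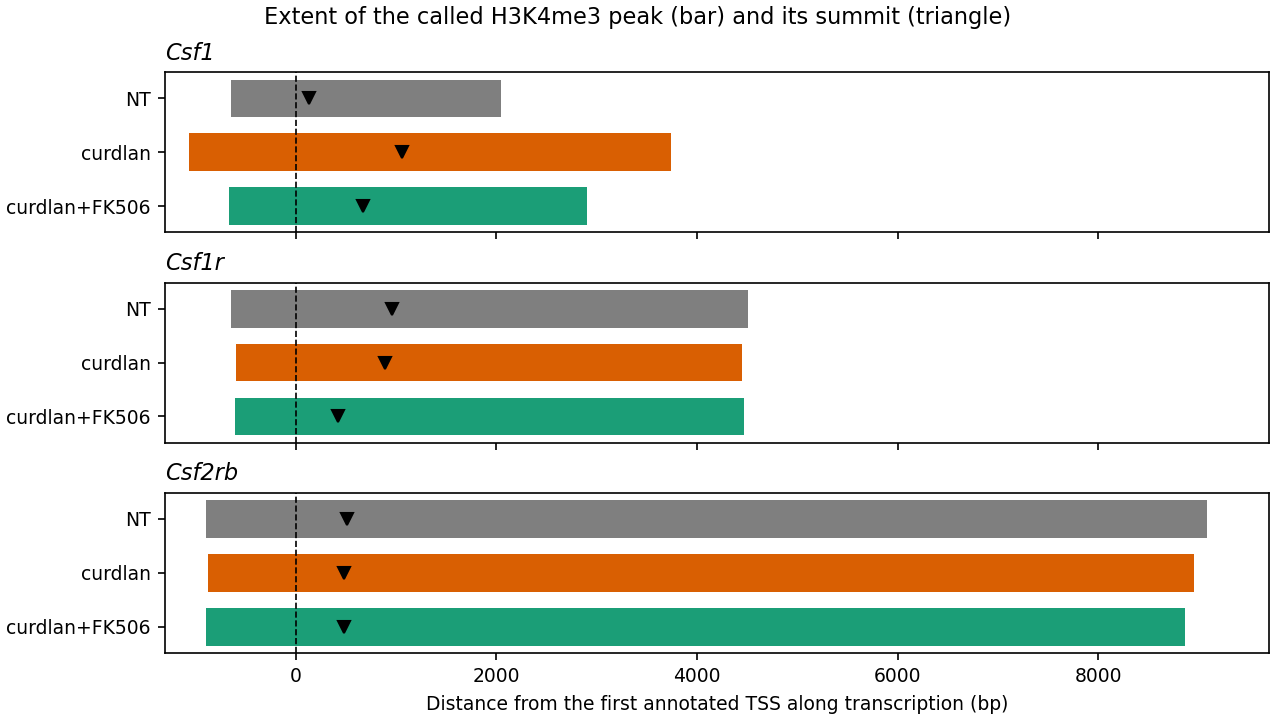
Extent of the called H3K4me3 peak (bar) and its summit (triangle) in bp from the first annotated TSS (x axis, along transcription) at Csf1, Csf1r and Csf2rb in NT, curdlan and curdlan with FK506. The Csf1 peak measures 2699, 4805 and 3568 bp, while the Csf1r peak stays at 5.05 to 5.15 kb and the Csf2rb peak at 9.76 to 9.98 kb.

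Csf1r, the M-CSF receptor gene, held 2260 tags in NT, 1817 in curdlan and 1856 in curdlan with FK506. As scaled tags these were 136 (130 to 141), 85.3 (81.5 to 89.4) and 95.3 (91.0 to 99.8), so NT was highest and curdlan lowest, without overlap of the intervals. The fold enrichments were 61.0, 75.4 and 40.7, which puts curdlan highest before centring. For curdlan over NT the centred log2 ratio was -0.43 by fold enrichment and -0.55 by scaled tags, at percentiles 21.9 and 2.30. The uncentred ratio of fold enrichment was 0.30, with the opposite sign. The measures differed in sign for curdlan with FK506 over curdlan, -0.62 by fold enrichment and 0.20 by scaled tags, at percentiles 12.9 and 94.6. Csf1r was called lower for curdlan with FK506 over NT by fold enrichment, at -1.04, beside 3.35% of all genes, and was not called by scaled tags, at -0.34, beside 0.316% called lower. The peak was 5.05 to 5.15 kb long in all 3 lists, and the NFATc2 summit 2518 bp downstream of a TSS lay inside it in each. It was the only one of the 15 summits inside an H3K4me3 peak after curdlan, beside 23.3% of all NFATc2 summits.

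Csf2rb, the common β subunit gene, held 2768, 2601 and 2583 tags, or 166 (160 to 172), 122 (118 to 127) and 133 (128 to 138) scaled tags. NT was again highest. Fold enrichment was 69.1, 122.8 and 53.8. For curdlan over NT the centred log2 ratio was 0.10 by fold enrichment and -0.32 by scaled tags. It was -0.92 by fold enrichment, under the limit, and 0.16 by scaled tags for curdlan with FK506 over curdlan, and -0.82 and -0.15 for curdlan with FK506 over NT. Csf2rb was not called by either measure in any comparison. Its peak was among the longest in the genome, 9977, 9832 and 9763 bp, at percentiles 99.8, 99.5 and 99.6 of all peaks, and ran from 893 bp upstream of the TSS to 9083 bp downstream in NT, past the end of intron 1 at 9067 bp. Of the 50-base words in the curdlan peak, 11.9% occurred again on chromosome 15, and 997 of their 4360 further copies lay in or within 10 kb of Csf2rb2, so tags of the paralogues may be shared between their peaks. The part of this in the values was not tested.

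As scaled tags per kb of peak, Csf1r had the highest level in NT at 26.3 (25.2 to 27.4), followed by Csf2rb at 16.7 (16.0 to 17.3) and Csf1 at 8.72 (7.87 to 9.62). In curdlan the order began with Csf1r at 16.9 (16.1 to 17.7), and Csf2rb at 12.4 (12.0 to 12.9) and Csf1 at 12.0 (11.3 to 12.7) overlapped in counting error. In curdlan with FK506 the order was again Csf1r, Csf2rb and Csf1, at 18.8, 13.6 and 9.66, without overlap.

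**Figure D4:**
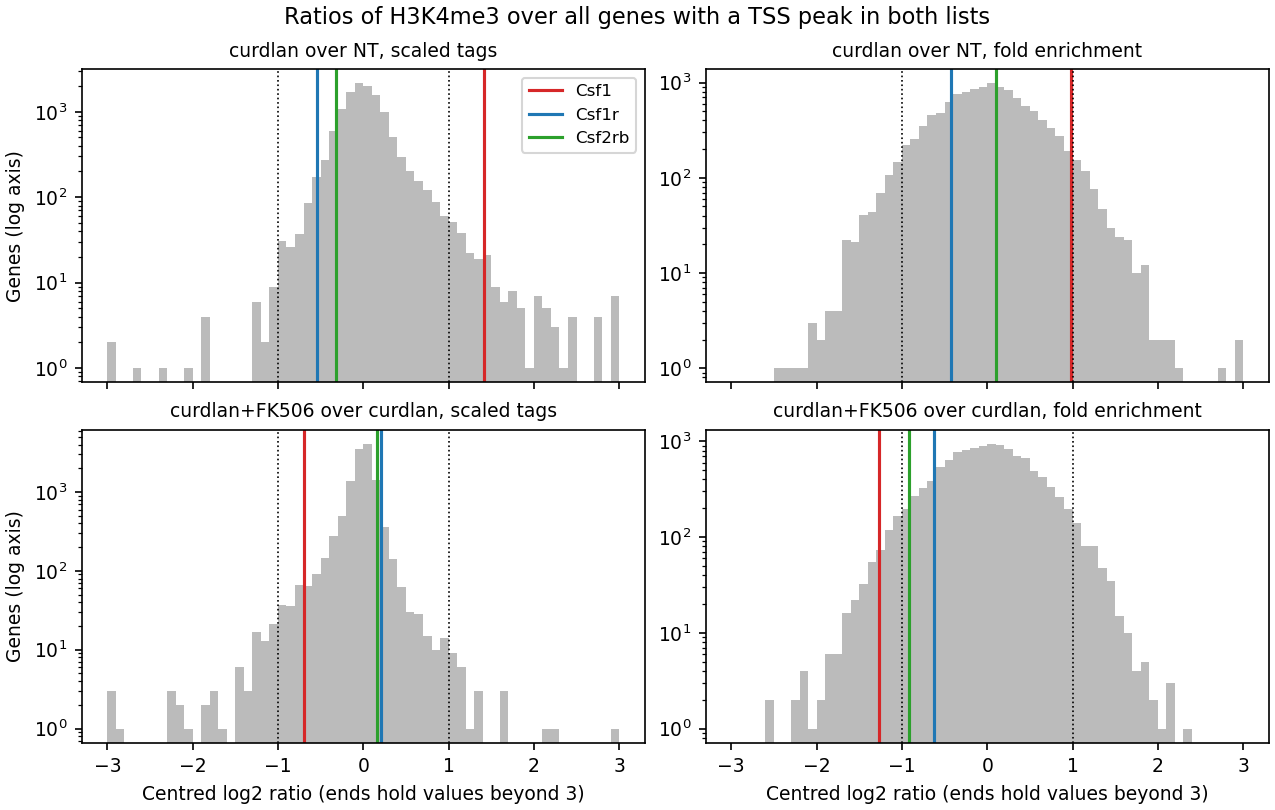
Histograms of the centred log2 ratio of H3K4me3 (x axis) over genes with a TSS peak in both lists (y axis, number of genes on a log scale), for curdlan over NT and curdlan with FK506 over curdlan, by scaled tags and by fold enrichment. Coloured lines mark Csf1, Csf1r and Csf2rb and dotted lines the 2-fold limit. Csf1 lies at 1.41 and -0.70 by scaled tags and at 0.98 and -1.26 by fold enrichment.

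Fold enrichment varied more across genes than scaled tags did. For curdlan over NT, the middle 50% of genes lay between -0.37 and 0.36 by fold enrichment and between -0.15 and 0.16 by scaled tags. By likeness of the 2 centred ratios of fold enrichment over the 3 libraries, the closest of 10746 protein-coding genes to Csf1 were Flcn, Nudt13 and Snx16, to Csf1r Pgm2, Cyb561 and Zfp386, and to Csf2rb Pnp, Clcn2 and Polr2h. On scaled tags, a choice made after seeing the data, they were Myo1d, Sdc4 and Slamf7 for Csf1, Ly6a, Mpeg1 and Zc3hav1l for Csf1r, and Rab1b, S100a10 and 1110020G09Rik for Csf2rb. No gene appeared under both measures. For curdlan over NT and then curdlan with FK506 over curdlan, Sdc4 had centred log2 ratios of 1.52 and -0.60 by fold enrichment and 1.37 and -0.62 by scaled tags, whereas Slamf7 had -0.13 and 0.49 by fold enrichment and 1.51 and -0.73 by scaled tags. By scaled tags Flcn was at 0.09 and 0.01, Nudt13 at -0.12 and -0.03 and Snx16 at 0.42 and -0.20, where Csf1 was at 1.41 and -0.70. Clcn2 and Polr2h had the same value in each of these ratios.

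Other genes of these pathways were taken from a list of 22 receptors, related ligands and signalling genes. Of the 22, 17 had an NFATc2 summit within 100 kb, beside 55.3% of protein-coding genes. Genes were counted singly, although neighbours can share a summit, so the 17 are not all separate observations. The nearest summits of Stat5a and Stat5b both held 49 tags. The 1 summit of Csf2rb2 was the one with 158 tags also counted for Csf2rb. A TSS peak of H3K4me3 was present in all 3 lists for 14 of them and in none for 8, beside 48.9%, 48.8% and 48.7% of protein-coding genes with one in NT, curdlan and curdlan with FK506. The 8 were the receptor genes Csf3r and Il6st and the ligand genes Il34, Il4, Il5, Il13, Osm and Il11. Lif was the only 1 of 7 related ligands with the mark, whereas all 9 signalling genes had it.

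Among the receptors, Csf2ra, the α chain for GM-CSF, held 47.7 scaled tags in NT, 44.5 after curdlan and 45.1 when FK506 was added. Il3ra, the α chain for IL-3, had the lowest level, with 9.24, 6.95 and 7.40. Il6ra, the IL-6 receptor gene, held 38.2, 29.8 and 33.3 and had an NFATc2 summit 641 bp from a TSS with 193 tags. Csf2rb2 held 139, 116 and 129. All 4 were highest in NT by scaled tags before centring, but for Csf2ra and Csf2rb2 this order did not hold after it. The centred log2 ratios of scaled tags for curdlan over NT and for curdlan with FK506 over NT were 0.02 and 0.09 at Csf2ra, -0.13 and 0.06 at Csf2rb2, -0.29 and -0.15 at Il3ra, and -0.24 and -0.03 at Il6ra. Of these 4, Csf2rb2 was called lower for curdlan over NT by fold enrichment, at -1.09, and was not called by scaled tags, at -0.13.

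For curdlan over NT by fold enrichment, 1 of the 14 marked genes was called higher, Cebpb, at 1.02, and 1 was called lower, Csf2rb2, beside 4.07% and 3.81% of all genes, so these counts are near the background. The median of the 14 was 0.09. By scaled tags 2 were called higher and none lower, beside 1.71% and 0.21% of all genes, with a median of 0.39. These were Stat5a, which encodes a transducer of GM-CSF and IL-3 signals, at 1.80, and Socs3, a feedback inhibitor of cytokine receptors, at 1.02. Stat5a held 36.8, 118 and 103 scaled tags, its peak was 3659, 7577 and 6823 bp long, and an NFATc2 summit with 49 tags lay 122 bp upstream of a TSS. Socs3 held 86.1, 161 and 162, its peak was 5005, 8623 and 8348 bp long, and an NFATc2 summit with 40 tags lay 24 bp downstream of a TSS. Both were higher by scaled tags after curdlan with and without FK506 than in NT. By centred fold enrichment neither was called. Stat5a was at 0.71 for curdlan over NT and 0.51 for curdlan with FK506 over NT, and Socs3 at 0.58 and 0.27. Longer peaks collect more tags, and levels per kb are not given for these genes. Whether either passed the 2-fold limit per kb of peak was not tested.

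For curdlan with FK506 over curdlan, Jak1 was the 1 of 14 called lower by fold enrichment, at -1.28, beside 4.08% of all genes, and was at -0.05 by scaled tags, with 33.3, 42.4 and 39.8 scaled tags. No gene of the list was called by scaled tags in that comparison, beside 0.615% of all genes called lower and 0.202% higher. For curdlan with FK506 over NT none was called by fold enrichment, beside 3.39% of all genes called higher and 3.35% lower. By scaled tags 3 were called higher, Stat5a at 1.65, Socs3 at 1.08 and Lif at 1.02, beside 1.15%, and none lower, beside 0.316%. Lif held 30.4, 50.7 and 54.9 scaled tags.

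**Figure D5:**
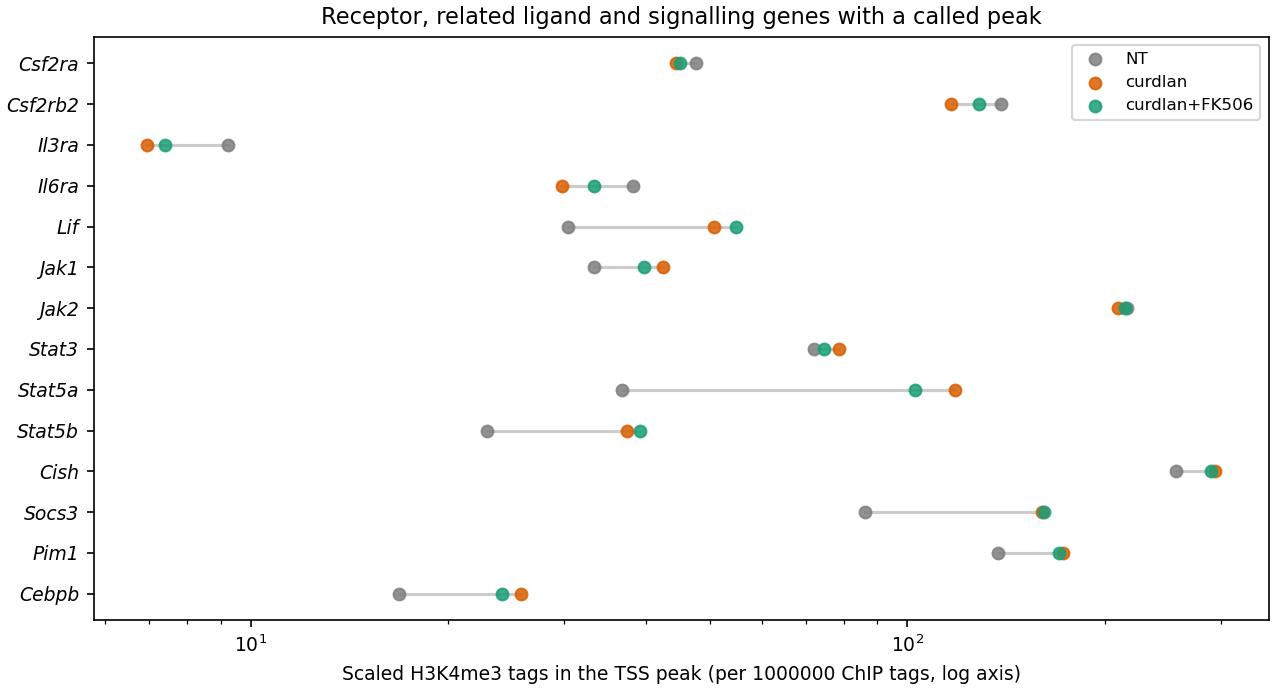
Scaled H3K4me3 tags in the TSS peak (x axis, log scale) in NT, curdlan and curdlan with FK506 for the 14 listed receptor, ligand and signalling genes with a peak in all 3 lists (y axis), 1 library a point. Stat5a goes from 36.8 to 118 and 103, while the 4 receptor genes at the top are highest in NT before centring, which does not hold for Csf2ra and Csf2rb2 after it.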

How the data were processed

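Reads were aligned by the authors to mm9 with bowtie, and each library was called on its own against its input with MACS, given as version 1.4.2 by the headers of the deposited files, at a p-value threshold of 1e-05, keeping at most 1 tag at a position. The deposited counts are tags per peak, not normalized. In the authors' files −log10 p is multiplied by 10 and strong peaks stand at 3100. The deposited fold enrichment is a ratio of observed to expected tags, and the FDR is in percent.

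Scaled tags are tags divided by the ChIP total of the library and multiplied by 1000000. Gene models were GENCODE vM1 on NCBIM37, which is mm9, and sequences came from that genome. The summit gave the position of an NFATc2 peak. The TSS peak was used for ratios. Called means past 2-fold after centring on the median over genes. Intervals at 95% are Poisson for tags and exact conditional binomial for ratios.

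The members and lists were chosen with earlier results of these data known. Named were the 7 genes, the listed receptors, listed genes past 2-fold, neighbours between a gene and a summit or in an unmarked span, markers, and the 3 genes most like each marked member. Alternatives for the windows, thresholds and measure were tried. The functions were tested on simulated data. Python 3.11.15, numpy 2.4.6, pandas 2.3.3 and scipy 1.17.1 were used.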

Additional observations from a re-analysis of the deposited data

How the results depend on the processing

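No paired analysis was possible because each condition had 1 library, and no library could be left out. The 15 NFATc2 summits became 8 at a p-value of 1e-10 or less, 8 within 50 kb and 28 within 200 kb, and stayed 15 at an FDR of 5% or less and with protein-coding TSSs. The share of all NFATc2 summits at 1e-10 or less is not given here. The single summits of Csf3 and Csf2rb were lost at 1e-10 and within 50 kb, and Il6 had none in any setting. The 3 members with an H3K4me3 peak were 3 in every list and setting.

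Most ratios moved with the measure. By scaled tags, by scaled tags per kb, by uncentred fold enrichment and by tags summed over all peaks of the gene, in that order, the log2 ratios for curdlan over NT were 1.41, 0.64, 1.71 and 1.42 at Csf1, -0.55, -0.45, 0.30 and -0.54 at Csf1r, and -0.32, -0.24, 0.83 and -0.31 at Csf2rb. With FK506 over curdlan alone they were -0.70, -0.30, -1.53 and -0.70 at Csf1, 0.20, 0.16, -0.89 and 0.20 at Csf1r, and 0.16, 0.14, -1.19 and 0.16 at Csf2rb. With FK506 over NT they were 0.72, 0.35, 0.18 and 0.73 at Csf1, -0.34, -0.29, -0.58 and -0.33 at Csf1r, and -0.15, -0.095, -0.36 and -0.15 at Csf2rb. Of these 36 values, 14 had the other sign than centred fold enrichment. The cause was not tested. The number of members past the limit was 0, 1 and 1 in the 3 comparisons. It became 1, 3 and 2 at 1.5-fold, 1, 0 and 0 by scaled tags and by summed tags, 0, 0 and 0 per kb, and 1, 2 and 0 without centring. Shares of all genes are given above only for 2-fold by centred fold enrichment and by scaled tags. The counts at 1.5-fold, by summed tags, per kb and without centring therefore have no background beside them.

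GGAAAA was at 3 summits within 50 bp, beside 32.9% of all, and 7 within 250 bp. TGANTCA was at 2, beside 13.8% of all, and 6. Of the 22 listed genes, 15 had a summit within 50 kb, beside 39.9% of protein-coding genes. At 1e-10 or less 10 had one within 100 kb, and the share of protein-coding genes at that threshold is not given here. By scaled tags 2 listed genes were called higher and 0 lower for curdlan over NT. The counts were 0 for curdlan with FK506 over curdlan, and 3 higher for curdlan with FK506 over NT. The shares of all genes are those given above.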
